A study of Mus musculus with 5 samples.

Results

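The Hist1 locus of mouse chromosome 13 was examined in DNase-seq peak lists from 3T9 fibroblasts. The locus was taken as 2.2 Mb of chromosome 13 on the build mm9, beginning at base 21700001. By a division given with the locus it held a leading flank of 0.1 Mb, histone block A (350 kb from 21800001), a stretch between the blocks (1450 kb from 22150001) and histone block B (300 kb from 23600001, to the end of the locus). A site was put in the subregion that holds its midpoint. The members were all called peaks that overlapped this interval, 92 of 35149 peaks in the vehicle list, 95 of 44956 in a list deposited under both treatments and 100 of 47621 in the 4-OHT list. When peaks overlapping by at least 1 bp were merged across lists, they made 102 of 52181 sites. Position alone chose them, and no score or width entered the choice.

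DNase-seq sequences the short fragments that DNase I releases from chromatin not covered by nucleosomes. The cells were 3T9 fibroblasts derived from E13.5 embryos of mixed strain. All of them were c-myc flox/flox and had been infected in culture with MycER, a fusion protein whose Myc part is switched on by adding 4-hydroxytamoxifen (4-OHT). The vehicle group received ethanol (0 h) and the treated group 400 nM 4-OHT for 4 h, with 2 libraries in each group. An input library of sonicated genomic DNA was also made and is not used here. The labels do not say whether the libraries came from separate cultures. The deposited lists of 4-OHT replicate 1 and vehicle replicate 2 held the same 44956 intervals and scores. Their shared list is called the double-labelled list here, beside the vehicle list (replicate 1) and the 4-OHT list (replicate 2). With 1 list of undisputed label per treatment there was no replicate check, and no test between treatments was made. The 4-OHT list also differs from the vehicle list in replicate, so treatment and replicate cannot be told apart.

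Replication-dependent histone genes supply the H1, H2A, H2B, H3 and H4 proteins that package newly copied DNA, and they are transcribed mainly during S phase. They are short, lack introns, and sit in many copies in a few clusters, of which Hist1 is the main one in mammals. H2A, H2B, H3 and H4 form the nucleosome core, and H1 binds the linker DNA between nucleosomes. Vomeronasal type 1 receptors (Vmn1r genes) are pheromone receptors of the vomeronasal organ, each expressed in few sensory neurons and silent in other tissues.

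The gene order of the locus was read from RefSeq, whose table is on GRCm38.p6, a later build than that of the peaks. Only names and neighbours were therefore used, and no peak was assigned to a gene. From H2bc13 to H1f1, the span examined, the table listed 54 histone entries, 52 of them coding. The histone entries H2bc1, H2ac1 and H2af-ps2 of the chromosome lie outside this span and are not counted. The first histone part held 23 coding histone genes, with 1 H1, 7 H2A, 8 H2B, 2 H3 and 5 H4 genes. It is not made of histone genes alone. After an opening run of 18 coding histone genes came 39 entries without any, of which 31 were tRNA genes and 3 were the coding genes Zfp184, Pom121l2 and Prss16 (a thymic serine protease). A closing run of 5 coding histone genes followed. The vomeronasal run then held 36 coding Vmn1r genes and 43 pseudogenes of that family, with 0 tRNA and 0 histone genes. Between it and the second histone part lay 59 entries, 45 of them tRNA genes. Of the others, 4 were coding: Zfp322a, Abt1, and the butyrophilin genes Btn1a1 and Btn2a2. The second histone part held 29 coding histone genes (5 H1, 5 H2A, 6 H2B, 7 H3 and 6 H4) and Hfe, which encodes a regulator of iron uptake. The stretch between the histone parts is thus not vomeronasal throughout, and the tRNA-rich run next to the second histone part has no vomeronasal gene.

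Promoters of the cluster are shown to make its gene families visible. Each is the 250 bases before the annotated start, from RefSeq on GRCm38.p6, 5′ to 3′ on the gene's own strand. The choice was the first H1, H2A, H3 and H4 gene in gene order and the first vomeronasal gene with an entry. Capitals mark matches, on either strand, to the CCAAT box and the TATA box (TATAAA). Their positions are on GRCm38.p6 and cannot be set beside the mm9 positions of the peaks. H1f5 is at chr13:21780626-21780875 (minus strand), H2ac13 at chr13:21716162-21716411 (plus), H3c10 at chr13:21717378-21717627 (plus), H4c11 at chr13:21734784-21735033 (plus) and Vmn1r188 at chr13:22087628-22087877 (plus).
H1f5: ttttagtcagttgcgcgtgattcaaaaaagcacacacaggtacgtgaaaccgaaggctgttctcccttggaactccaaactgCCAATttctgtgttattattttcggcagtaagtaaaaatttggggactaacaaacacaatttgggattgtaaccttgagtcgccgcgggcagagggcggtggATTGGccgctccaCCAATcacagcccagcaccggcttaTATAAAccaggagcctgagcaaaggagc
H2ac13: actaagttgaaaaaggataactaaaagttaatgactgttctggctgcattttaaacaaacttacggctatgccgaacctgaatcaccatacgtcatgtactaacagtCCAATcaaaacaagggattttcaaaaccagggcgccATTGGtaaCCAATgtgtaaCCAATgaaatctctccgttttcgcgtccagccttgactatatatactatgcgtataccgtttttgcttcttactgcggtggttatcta
H3c10: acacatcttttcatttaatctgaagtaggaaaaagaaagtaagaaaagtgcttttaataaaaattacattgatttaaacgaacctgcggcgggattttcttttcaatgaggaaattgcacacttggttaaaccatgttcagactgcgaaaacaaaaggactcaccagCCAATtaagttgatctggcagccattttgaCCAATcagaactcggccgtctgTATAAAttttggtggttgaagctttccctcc
H4c11: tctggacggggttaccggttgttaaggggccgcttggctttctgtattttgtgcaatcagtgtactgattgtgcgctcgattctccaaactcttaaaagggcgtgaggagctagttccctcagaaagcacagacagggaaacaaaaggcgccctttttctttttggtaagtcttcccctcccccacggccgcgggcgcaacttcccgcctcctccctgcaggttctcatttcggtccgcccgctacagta
Vmn1r188: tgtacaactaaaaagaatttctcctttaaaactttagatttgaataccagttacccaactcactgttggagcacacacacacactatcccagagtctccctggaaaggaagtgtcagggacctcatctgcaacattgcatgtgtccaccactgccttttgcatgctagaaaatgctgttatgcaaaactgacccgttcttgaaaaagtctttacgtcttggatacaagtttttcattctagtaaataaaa

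The H1f5 promoter has 3 CCAAT matches and a TATA box whose first base lies at -28 from the start. H2ac13 has 4 CCAAT matches and no TATAAA match. H2ac13 and H2bc13 point away from each other with starts 229 bases apart, so the sequence above spans the whole interval between both starts. In the cluster 9 such pairs were found, all of an H2A with an H2B gene, with starts 164 to 268 bases apart (median 180). Promoters were listed for 49 of the 52 coding histone genes, and with each pair counted once these are 40 separate promoter regions. The H4c11 and Vmn1r188 sequences hold none of the motifs searched.

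In the same 250 bases of every listed promoter, 4 motifs were searched on both strands, none of which contains another. They were the CCAAT box, the TATA box with the letters TATAAA, the octamer of H2B promoters (ATTTGCAT) and the E-box that Myc prefers with its partner Max (CACGTG). The CCAAT box was found in 42 of the 50 histone promoters of the cluster (84.0%), in 11 of the 33 vomeronasal ones (33.3%) and in 33.8% of all 32851 promoters of the table. All 39 listed promoters of H1, H2A, H2B and H3 genes held it, and 3 of 11 H4 promoters did. The TATA box was found in 48.0% of the histone promoters, in 6 of 33 vomeronasal ones (18.2%) and in 12.4% of all. The octamer occurred in 5 of 14 H2B and 4 of 12 H2A promoters, in 0 of 24 of the other families, in 3 of 33 vomeronasal promoters (9.09%) and in 1.60% of all. The E-box occurred in 0 of 50 histone promoters, in 1 of 33 vomeronasal ones and in 6.02% of all. The 0 of 50 allows a share of up to 6% and says only that these letters are not in these windows. GC content was 44.6% (median) in the histone promoters, 37.6% in the vomeronasal ones and 52.4% in all promoters. The medians of CpG per promoter were 9.5, 1 and 6 in the same order. The histone promoters thus lay below all promoters in GC content and above them in CpG. Pairs share most of their bases, so these counts are not of independent sequences.

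Called peaks were packed into the histone blocks. Block A held 41 peaks in the vehicle list, 42 in the double-labelled list and 45 in the 4-OHT list. Block B held 27, 30 and 30 in the same order. The rest of chromosome 13, between its first and last called peak, had 12.5 peaks per Mb in the vehicle list, 15.9 in the double-labelled list and 17.1 in the 4-OHT list. Against this the blocks together had 105 peaks per Mb in the vehicle list (exact Poisson 95% interval 81.2 to 133), a ratio of 8.34 (6.48 to 10.6). The ratio was 6.94 (5.43 to 8.75) in the double-labelled list and 6.75 (5.31 to 8.46) in the 4-OHT list. The order depends on list length: with every list reduced by score to the length of the shortest, the ratios were 8.34, 8.20 and 8.62. The intervals cover counting error over peaks only, and neighbouring peaks are not independent. From the vehicle to the 4-OHT list the peaks of the blocks went from 68 to 75, and those of the rest of the chromosome from 1440 to 1964.

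**Figure D1:**
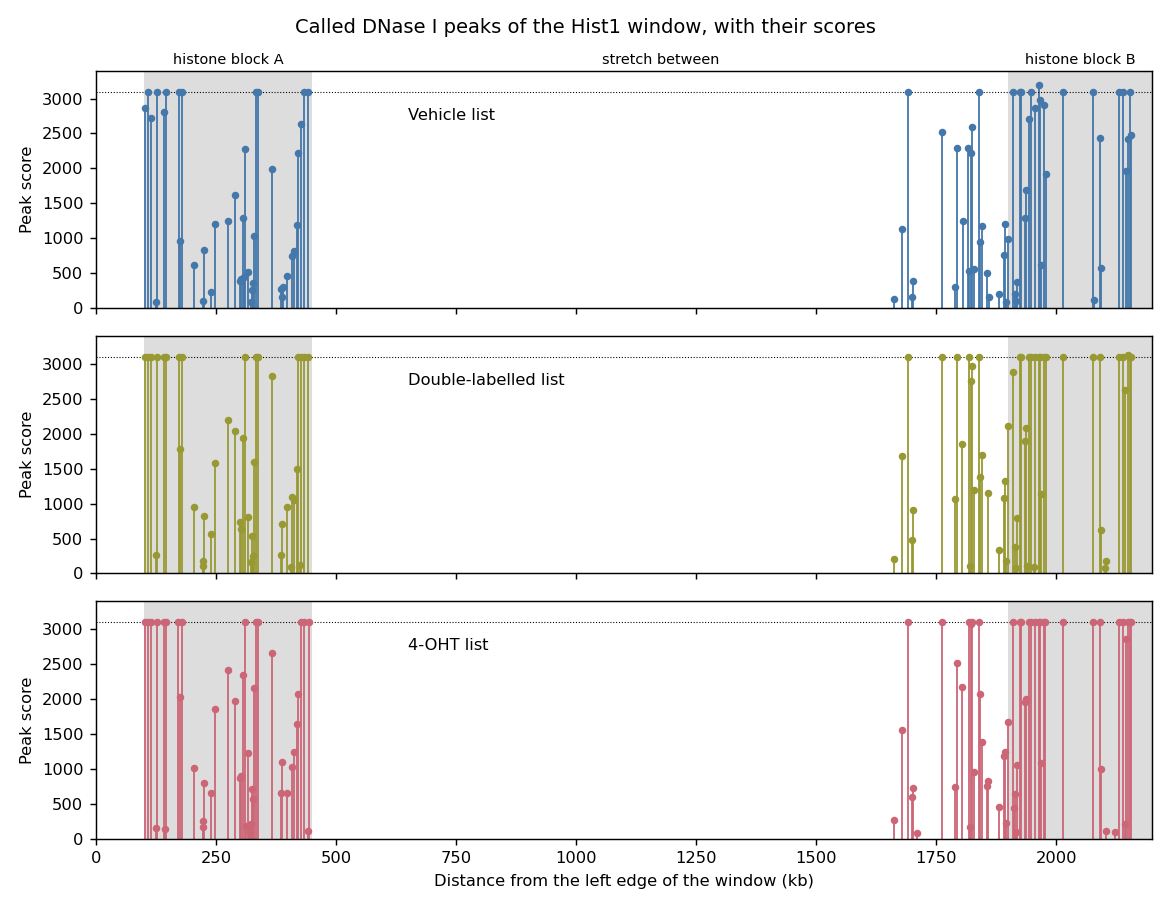
Called peaks of the Hist1 window in each of the 3 distinct lists, by distance from the left edge of the window (kb) and deposited score. Each stem is 1 peak, grey marks the histone blocks and the dotted line the score of 3100 at which values pile up. Peaks fill both blocks and the last part of the stretch between, and none lies between the sites centred at 443 and 1662 kb in any list.

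Peaks covered 18.2% of the bases of the blocks in the vehicle list, 20.1% in the double-labelled list and 20.5% in the 4-OHT list. On the rest of chromosome 13 these shares were 1.67%, 2.15% and 2.16%. The locus made up 1.88% of the chromosome's called span and held 102 of its 2266 sites (4.501%). Few windows elsewhere held as many sites. Block A had 46 merged sites, and 28 of 7355 windows of 350 kb laid end to end over the other chromosomes and the rest of chromosome 13 had as many (0.381%, median 4 sites). Block B had 32 sites, reached by 123 of 8573 windows of 300 kb (1.43%, median 3). The densest stretches of these lengths anywhere else held 67 and 58 sites, so the locus is dense without being the densest.

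The stretch between the blocks was not uniform. Over its whole length its density was close to that of the rest of the chromosome, with ratios of 1.32 (0.846 to 1.96) in the vehicle list, 0.995 (0.630 to 1.49) in the double-labelled list and 1.01 (0.653 to 1.49) in the 4-OHT list. This average hid 2 parts, which were separated after the positions had been seen. From the end of the last site of block A at 22143649 to the next site at 23362018 there was no peak in any list, over 1.22 Mb. At the density of the rest of the chromosome this length would hold 15.3 peaks of the vehicle list, 19.4 of the double-labelled list and 20.8 of the 4-OHT list. For a length fixed beforehand, 0 peaks in a list would allow up to 2.46 peaks per Mb by 3 counts and 3.03 by the exact Poisson limit. This length was cut at the longest gap of the locus, so its count of 0 was set by that choice. Neither these limits nor the counts above measure how unusual the gap is. Among the 2265 gaps between neighbouring sites of chromosome 13 this one ranked 8 by length, and 348 gaps of 1 Mb or more were found in the genome, so gaps of this size are few but not peculiar to the locus. How much of this sequence short reads can be assigned to was not analysed here.

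**Figure D2:**
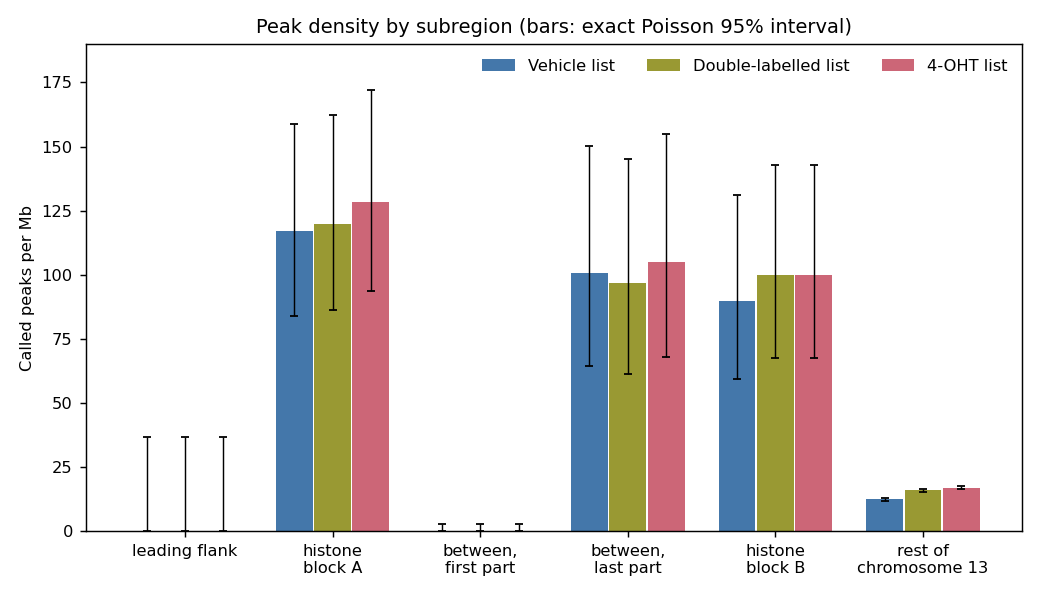
Called peaks per Mb in each subregion and list, with exact Poisson 95% intervals as bars. The parts of the stretch between were cut at peaks after the positions were seen, so their intervals do not hold as for edges set beforehand. Block A, the last part of the stretch between and block B stand at 90.0 to 129 peaks per Mb, the rest of chromosome 13 at 12.5 to 17.1, and the leading flank and the first part of the stretch between at 0.

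After this gap, peaks resumed before block B. The last 238 kb of the stretch, from 23362018 on, held 24 peaks in the vehicle list, 23 in the double-labelled list and 25 in the 4-OHT list. That was 101, 96.6 and 105 peaks per Mb. In the vehicle and 4-OHT lists these values lay between those of blocks B and A. In the double-labelled list the value lay below both (120 and 100). All were within the blocks' counting intervals. The left edge of this part was set at its first site after the positions were seen, which raises its density. The block edges were given beforehand, so the comparison is not on equal terms. In gene order, the vomeronasal run is followed by the tRNA-rich run and then by histone genes, but which genes these sites lie at was not determined. All peaks of the stretch between belonged to these 24 sites. Their median gap was 5.90 kb, against 2.18 kb in block A and 2.02 kb in block B, and 17.4 kb over chromosome 13. In block A 66.7% of the gaps were under 5 kb, in block B 71.9%, and in the last part of the stretch 47.8%, against 22.16% on the rest of the chromosome. No peak lay in the leading flank, where the site before block A ended at 21623491 and the first of block A began at 21801526. The last site of block B ended at 23857215 and the next began at 23924782, with a score of 85.1 in the 4-OHT list and no peak in the other lists.

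Peaks of the locus had high scores. The deposited score is the caller's own. The submitters' processing notes name MACS 1.4.1, whose score is -10·log10(p), so a higher score means a smaller p. Scores pile up at 3100, called the ceiling here. The median score in block B was 2706 in the vehicle list and 3100 in the other lists. In block A it was 1196 in the vehicle list, 1591 in the double-labelled list and 1646 in the 4-OHT list. The last part of the stretch between had medians of 971, 1386 and 1244, and the rest of chromosome 13 had 301, 323 and 293. Every part of the locus that held peaks thus had a median at least 3 times that of the rest of the chromosome within the same list. Scores rise with depth, which is unknown, so a score difference between lists is not read as a treatment effect.

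At the ceiling were 19 of the 68 vehicle peaks of the blocks, or 27.9% (Wilson 95% interval 18.7% to 39.6%), where the whole list had 7.85%. In the double-labelled list 32 of 72 reached it (44.4%, 33.5% to 55.9%), against 14.7% of the whole list. In the 4-OHT list 32 of 75 did (42.7%, 32.1% to 53.9%), against 10.4%. Of the 87 sites found in all 3 lists, 20 were at the ceiling in each of them, or 23.0%, where 8.57% of all such sites of the genome were. These 20 are 16.8% of the 119 on chromosome 13. Block A held 9 and block B held 9, and the last part of the stretch between held 2. Of the 7355 windows of 350 kb, 2 had 9 or more such sites, and of the 8573 of 300 kb 1 did. The most in any stretch elsewhere was 11 in 350 kb and 10 in 300 kb. By this count both blocks were close to the highest of the genome.

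**Figure D3:**
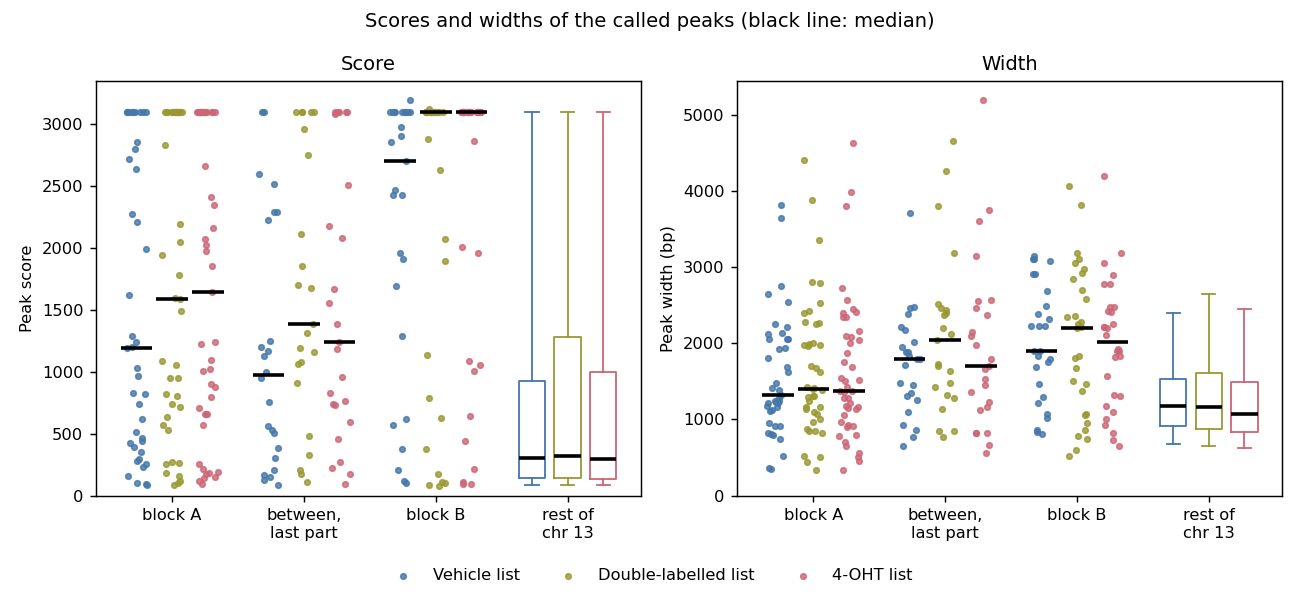
Score (left) and width in bp (right) of every called peak of block A, the last part of the stretch between and block B, in each list, with the median as a black line. The rest of chromosome 13 is shown as boxes of the quartiles with whiskers at the 5 and 95 percentiles. Medians of all parts of the locus lie above those of the rest of the chromosome in both measures.

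Peaks were also wide. The median width in the blocks was 1687 bp in the vehicle list (quartiles 1147.5 and 2226), 1673 bp in the double-labelled list and 1691 bp in the 4-OHT list. On the rest of chromosome 13 it was 1176.5, 1158 and 1070 bp. Block B had wider peaks (medians 1903, 2203 and 2014.5 bp) than block A (1315, 1401 and 1379 bp). Peaks of at least 2000 bp made up 36.8% of the vehicle peaks of the blocks and 11.2% of those on the rest of the chromosome. In the 4-OHT list 30 of 75 did (40.0%), against 10.9%. At the other end, peaks scoring under 200 made up 8.82% of the vehicle peaks of the blocks and 36.6% of those on the rest of the chromosome, with 13.3% and 38.2% in the 4-OHT list.

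Block A had 9 sites at the ceiling in all lists. Sites at the ceiling in all lists were named by their lowest score, with ties ordered by width. The widest of block A was at 21806494 to 21811126 and its called widths were 3809, 4407 and 4633 bp in the vehicle, double-labelled and 4-OHT lists. The next was at 22131947 to 22135931, with widths of 3649, 3874 and 3985 bp in the same order. Both grew in called width from the vehicle to the 4-OHT list, but others did not. The site at 21870521 to 21873418 was 2749, 2785 and 2449 bp wide, and that at 21877731 to 21880171 was 2251, 2280 and 2348 bp. The sites at 22141376 to 22143649 and 21844870 to 21847077 completed the first 6. The last site before the 1.22 Mb gap, at 22141376, was thus at the ceiling in every list.

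Block A was divided into 3 runs after its values had been seen. In the opening run (the first 100 kb) 5 of 11 sites were at the ceiling in all lists, and the median site score was 2979 in the vehicle list and 3100 in the others. The middle run (the next 130 kb) had 20 sites, of which 0 were at the ceiling in all lists. Its median scores were 565 in the vehicle list, 805 in the double-labelled list and 838 in the 4-OHT list. The strongest site of the middle run, at 22008590 to 22012400, scored 2272 in the vehicle list and 3100 in the others. In the closing run (the last 120 kb) 4 of 15 sites were at the ceiling in all lists, with medians of 1991, 1493 and 2075. The medians of all runs are over the sites with a peak in that list, so they do not cover the same sites. In the closing run 13 of the 15 sites were in all lists. Those at 22106242 (85.45) and 22124252 (113.88) were in the double-labelled list alone, which lowers its median. The sites at 22031864 and 22036193, both at the ceiling in all lists, count to the closing run only because of where its edge was set. The called width followed the same course. Its median in the vehicle list was 2098.5 bp in the opening run, 1168.5 bp in the middle run and 1483 bp in the closing run. The gene order of the first histone part has histone genes at both ends and a tRNA-rich run within, but sites were not matched to genes.

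Block B had strong sites both in its first 100 kb and in the rest, beside weak ones that the vehicle list lacked. Of the 18 sites in its first 100 kb 4, and of the 14 in its other 200 kb 5, were at the ceiling in all lists. Median site scores were 2783 and 2786 in the vehicle list, over the sites with a vehicle peak. The widest site at the ceiling was at 23773658 to 23777854, with called widths of 3972, 4061 and 4197 bp in the vehicle, double-labelled and 4-OHT lists. It was followed by 23625011 to 23628201 (2915, 3183 and 3189 bp) and 23621820 to 23624991 (3076, 3059 and 3057 bp), which are neighbours with 19 bp between them. The sites at 23836442 to 23839493, 23851748 to 23854685 and 23712229 to 23715001 completed the first 6. The last of these stood alone. It had 2688, 2695 and 2773 bp in the 3 lists, 33049 bp without a peak on its left and 58656 bp on its right. The gap on its right was the longest within either block.

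In the last part of the stretch between, 2 sites were at the ceiling in all lists, at 23390017 to 23392517 and 23536977 to 23539162. The site at 23460254 to 23461793 scored 2516 in the vehicle list and 3100 in the others, and lay beyond a gap of 50514 bp. The site at 23492278 to 23494717 scored 2291, 3100 and 2514 in the vehicle, double-labelled and 4-OHT lists. The widest of the whole locus was at 23514481 to 23519679. The 4-OHT list (5199 bp) and the double-labelled list (4656 bp) had it as a single peak, whereas the vehicle list had 2 peaks, together 4343 bp. It scored 2291 in the vehicle list and 3100 in both others. The next sites by score were at 23524112 to 23525479 (2600, 2964 and 3100), 23522214 to 23523967 (2227, 2751 and 3082) and 23502504 to 23505742 (1247, 1852 and 2178), in the order vehicle, double-labelled, 4-OHT. The others of the first 12, at 23597406, 23540492, 23544919 and 23376790, had highest scores of 1680 to 2113.

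Some sites of this part were wide without being strong. The site at 23555000 to 23559481 spanned 4482 bp with scores of 509, 1158 and 828 in the vehicle, double-labelled and 4-OHT lists. It was a single peak in the double-labelled list and 2 peaks in each of the others. The site at 23527224 to 23531073 was called as 3703, 3796 and 3748 bp with scores of 559, 1190 and 960. Of the 102 sites of the locus, 7 were split into several peaks in at least 1 list (6.86%), against 3.82% of all sites. Neighbouring sites under 100 bp apart made up 6 of 101 neighbour pairs here (5.94%) and 1.38% of those elsewhere. Sites of the locus lie closer together in general, and whether this share exceeds what their density gives was not tested.

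Most sites of the locus were found in every list. Of the 102 sites 87 were present in all 3, or 85.3% (77.1% to 90.9%), where 61.1% of all sites were and 60.1% of those on the rest of chromosome 13. In block A these were 39 of 46, in block B 26 of 32 and in the last part of the stretch between 22 of 24. Weak sites were those most often missing from a list, and the locus had few of them, so the counts are also given by score. Of the 4-OHT sites, 10 of 97 had no vehicle peak (10.3%, 5.70% to 17.9%), against 29.6% of all. Among those scoring 80 to 200 in the 4-OHT list 9 of 11 had none, against 71.1% of 16736 outside the locus. From 200 to 500 it was 1 of 6, against 16.4%. At 500 and above it was 0 of 80, which allows a share of up to 3.75% by 3 counts and 4.58% by the Wilson limit, against 0.242% outside. Of the 87 vehicle sites 0 lacked a 4-OHT peak, which allows up to 3.45% by 3 counts and 4.23% by the Wilson limit, against 3.87% of all vehicle sites. The locus and the genome are not told apart by this count.

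The 15 sites that a list lacked were all weak, and the vehicle list lacked each of them. The 4-OHT list alone had 7, the double-labelled list alone 5, and both of these together 3. Over all 52181 sites these classes held 6416, 4451 and 7335. The vehicle list alone had 697, it shared 618 with only the double-labelled list and 793 with only the 4-OHT list. The vehicle list is the shortest, and most sites that a list lacked were lacking from it over the genome too. The strongest was at 23841357 to 23842360 in block B, with a score of 216 in the 4-OHT list. In block A the sites of the 4-OHT list alone lay at 22019464 (188), 22012467 (178), 21843858 (141) and 22020186 (93.8). The sites in both the double-labelled and the 4-OHT list were at 21921783 to 21922915 (180 and 176 in that order), 23802046 to 23802993 (175 and 108) and 23520096 to 23521017 (109 and 174). The double-labelled list alone had 22124252 (114), 23637669 (108) and 23652420 (97.5), and the 4-OHT list alone 23820949 (94.8). The other 3 scored at most 89.3. The double-labelled list carries both treatment names, so its sites cannot be given to either.

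**Figure D4:**
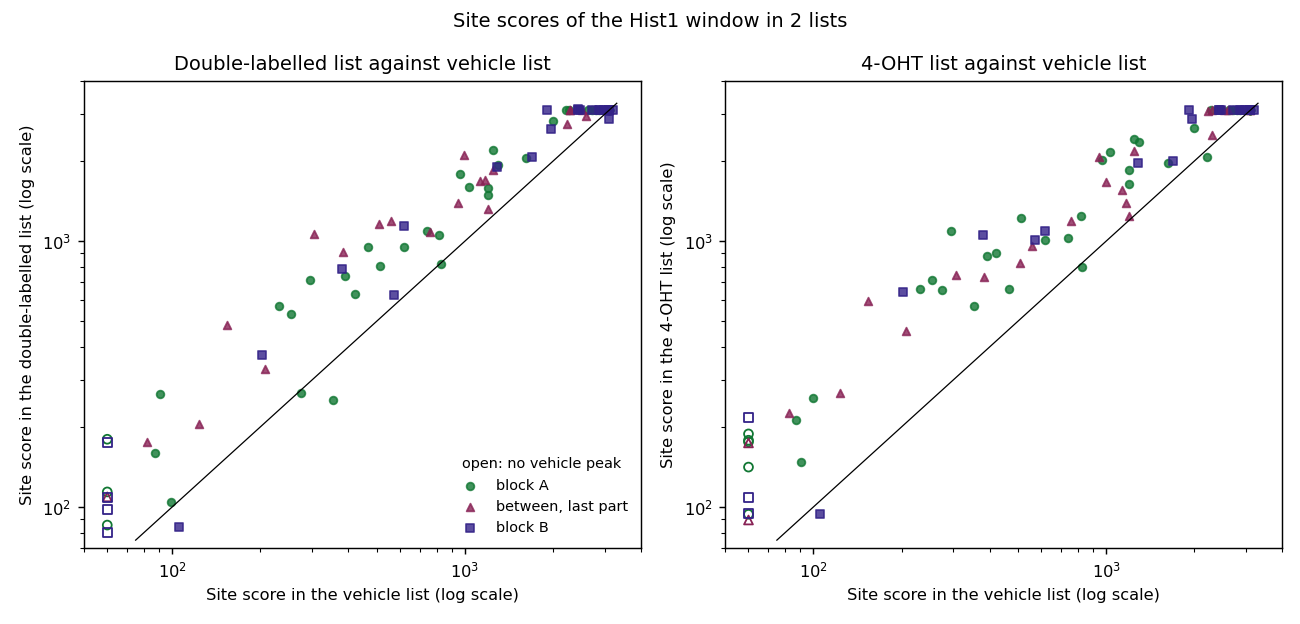
Score of each site of the locus in the double-labelled list (left) and the 4-OHT list (right) against its score in the vehicle list, both axes on a log scale, with the line of equal scores. Shapes and colours mark block A, the last part of the stretch between and block B, filled points are sites in all 3 lists, and open points at the left edge are sites with no vehicle peak. Nearly all points below the ceiling lie above the line in both panels, and all open points score 216 or less.

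Between the vehicle and 4-OHT lists, scores and widths of the locus differed in the same direction as over the genome. Of the 50 shared sites below the ceiling in both lists, 47 scored higher in the 4-OHT list (94.0%), against 90.7% of all such sites. The median ratio of the scores was 1.73 here and 1.63 over the genome. The double-labelled list against the vehicle list gave 45 of 49 (91.8%) and a median ratio of 1.502, where the genome had 91.7% and 1.82. Among the 80 shared sites that no list had split, 58 were wider in the 4-OHT list (72.5%), against 68.1% of all. The median width difference was 88 bp here and 79 bp over the genome. Both comparisons share the vehicle list, and the depth of the libraries is unknown.

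To set the lists side by side on a common scale, each site's score was ranked within its list, as a percent of that list's sites. Tied scores were given the middle of the ranks they span. The vehicle list had 33979 sites and the 4-OHT list 46415, so this scale does not remove their overall shift. Rank rose from the vehicle to the 4-OHT list at 61 of 87 shared sites (70.1%), against 83.3% of all shared sites, and by a median of 5.52 percentage points against 9.31. In block B, where 9 of 26 shared sites were at the ceiling in all lists, rank rose at 15 of 26 sites and by a median of 3.19. In the last part of the stretch between, where 2 of 22 were, it rose at 18 of 22 and by a median of 7.78. The largest rises, which include the overall shift, were at weak sites. The site at 23595168 to 23596803 scored 82.2 in the vehicle list, 176 in the double-labelled list and 226 in the 4-OHT list, and its rank rose by 38.4. The site at 23398680 to 23400127 scored 153, 482 and 594 and rose by 36.8, that at 22022615 to 22023964 scored 87.0, 159 and 212 and rose by 33.9, and that at 21923120 to 21923580 scored 99.3, 105 and 257 and rose by 33.8. At all 4 of these the score of the double-labelled list lay between the others.

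Rank fell from the vehicle to the 4-OHT list by at most a few percentage points. At 23661732 to 23664225, which scored 3194 in the vehicle list and 3100 in the others, rank fell by 5.44 percentage points. This site was ranked above the ties at 3100 in the vehicle list and among them in the 4-OHT list. Whether a score above 3100 marks a stronger site than 3100 was not tested, so this fall is not read as a change. The site at 23616350 to 23617219 scored 105 in the vehicle list, 84.2 in the double-labelled list and 93.9 in the 4-OHT list and its rank fell by 4.27. The site at 22120201 to 22122303 scored 2214, 3100 and 2075 and fell by 3.35. Its called widths were 1237, 1065 and 2048 bp in the same order. At 21806494 to 21811126, at the ceiling in all lists, rank fell by 1.29, as it did at the other sites at exactly 3100 in both lists. That shift is set by the number of tied sites in each list. From the vehicle to the double-labelled list, rank rose at 52 of 87 sites (59.8%), against 80.9% over the genome. Ties at 3100 lower this share for the locus too. Falls were larger, with a lowest change of -11.7 at a site of block B (23608054 to 23611941). Its scores were 3100, 2878 and 3100 in the vehicle, double-labelled and 4-OHT lists. Over the genome, changes of rank from the vehicle to the 4-OHT list ran from -40.7 to 66.4 percentage points.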

How the data were processed

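DNase-seq was done on DNase I-treated chromatin (200 to 300 U/ml, fragments under 500 bp) of 4 libraries. The submitters' processing notes name mm9 as the genome, MACS 1.4.1, BWA 0.6.2 and SAMtools, and further settings, depth and any pooling are not given in the sources used here. The authors deposited 1 peak list per library, with start, end and the caller's score. The scores are not scaled between libraries as far as stated, and their reading as -10·log10(p) rests on the caller named and the values (lowest 80). Peak starts were written counting from 1.

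Of the 4 lists 2 were identical and were used once. Peaks were merged into sites on an overlap of at least 1 bp with Python 3.11.15 and numpy 2.4.6, and this step was tested on simulated data. Intervals are exact Poisson for densities and Wilson for shares (scipy 1.17.1), at 95%, and cover counting error only. The rest of chromosome 13 was the 114.9 Mb between its first and last peak without the locus. Sites named were the 6 of highest lowest score in each block, the 12 of highest score in the stretch between, the 5 widest, the 12 of highest score that a list lacked, 4 rises and 4 falls in rank, and the 4 longest gaps. Others named were chosen after their values were seen, as were the division of the stretch between and the runs within the blocks. The locus, lists and motifs were chosen with earlier results of these data known. Alternatives varied the lowest score, list length, block edges, reference, measure, merging and the lists used. RefSeq (GRCm38.p6) gave gene order by symbol and promoters for 49 of 52 coding histone genes. The fibroblast label could not be checked against markers, since peaks were not assigned to genes.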

Additional observations from a re-analysis of the deposited data

How the results depend on the processing

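Of 77 values recomputed for 16 results, 67 stayed within the interval of the main value or, for counts, within 1.5 times. The vehicle list is the shortest, so its own values at equal list length could not move and count among the 67. Some intervals are wide. With blocks widened by 50 kb the median block score of the vehicle list fell from 1937.6 to 1292, within its interval of 1030.75 to 2705.96. It went from 2134 to 1993 in the double-labelled list and from 2075 to 1969 in the 4-OHT list. By share of bases covered, in place of peaks per Mb, the ratio of the blocks to the rest of chromosome 13 was 10.9 in the vehicle list, 9.38 in the double-labelled list and 9.47 in the 4-OHT list. That of the stretch between was 1.71 in the vehicle list, 1.56 in the double-labelled list and 1.55 in the 4-OHT list. Of these, the vehicle value alone stayed within the interval of its main value (0.846 to 1.96). With every list at the length of the shortest (35149 peaks), the ratio of the blocks was 8.62 in the 4-OHT list, 90.0% of block sites were in all lists (83.3% before), and 4 block sites of the 4-OHT list had no vehicle peak (8 before). Merging peaks within 500 bp left 3 such sites. Leaving out 1 list at a time gave 72 to 78 block sites (78 with all), 23 to 24 sites in the stretch between (24), and shares of block sites present in all lists from 85.9% (without vehicle replicate 1) to 90.3% (without 4-OHT replicate 2). The cause was not tested, beyond that fewer lists or peaks were used. No paired analysis was possible because only 1 list per treatment has an undisputed label. Depth is unknown and limits every count of weak sites.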

Other observations

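A pair of narrow sites in the middle run of block A had nearly the same edges in every list. The site at chr13:21903930-21904453 was 524 bp wide in the vehicle list, 508 bp in the double-labelled list and 504 bp in the 4-OHT list, with scores of 617, 948 and 1010. The site at chr13:21923858-21924211 was 354, 338 and 334 bp wide in the same order, with scores of 827, 818 and 800. Relative to the vehicle peak, both starts were shifted right by 8 bp in the double-labelled list and by 10 bp in the 4-OHT list, and both ends were shifted left by as much. Among 29977 shared sites that no list had split, 3 had such mirrored edges, and the other was at chr17:7235093-7235521. Edges within 20 bp of those of the vehicle peak, mirrored or not, were less rare, with 79 such sites (0.264%). Of these 3 lay in the locus, the pair above and the wider site at chr13:22112141-22114704. Of 39 sites narrower than 600 bp, 6 scored at least 500 in all lists, and 2 of these were the sites above. The pattern was noticed after the values had been seen, and its cause was not tested.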
